A study of Mus musculus with 14 samples.

Results

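Jejunal cells sorted for the adhesion molecule CD166 were compared with jejunal cells selected by the stem cell receptor LGR5, over all genes. The members were the 2 CD166 and the 2 LGR5 libraries of the jejunum, 4 of the 14 RNA sequencing libraries of the series, chosen by their titles. The other libraries held crypt cells of both regions and the same sorted populations of the ileum. Tissue came from C57Bl6 mice, labelled male and 6 to 12 weeks of age, and jejunum was taken 5 to 8 cm from the pylorus. CD166 cells were sorted by the gate CD44+, CD24lo and CD166+. How LGR5 was detected in the LGR5 cells is not given in the sources used here, and nothing in the labels ties a library to its own mouse. The p-values therefore measure the spread between these libraries, which may be technical. The labels also carry a culture protocol for sorted cells, whereas the design text of the series has sorted cells going straight into lysis buffer. All values are from RNA of pooled cells, in which fewer cells of a type and less RNA per cell cannot be told apart.

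Crypt base columnar stem cells sit at the bottom of the intestinal crypt between Paneth cells, carry the R-spondin receptor LGR5 and divide under Wnt signals. Their progeny become absorptive enterocytes or the secretory types, which are mucus-forming goblet cells, antimicrobial Paneth cells, chemosensory tuft cells and hormone-releasing enteroendocrine cells. CD166, encoded by Alcam, lies on stem cells and Paneth cells of the crypt, and CD24 is known from Paneth and enteroendocrine cells.

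Total expected counts were 14325049 and 13646762 in the CD166 libraries, against 7904393 and 11206020 in the LGR5 libraries, and edgeR tested 13491 of 36401 genes. Log2 levels correlated at r = 0.979 between the CD166 libraries and at 0.989 between the LGR5 libraries, against 0.942 to 0.958 across the populations. Xist, the transcript of the inactive X chromosome of females, stood at 204 and 747 CPM of the total in the CD166 libraries and at 1107 and 1483 CPM in the LGR5 libraries. The Y-linked Eif2s3y was also present, at 8.06 and 27.3 CPM in CD166 and at 30.5 and 35.9 CPM in LGR5, although every library is labelled male. CD166 library 1 was the lowest of the 4 in both transcripts, and Xist was not called between the populations (log2 -1.35 ± 0.77 SE, adjusted p = 0.500); the part of this in the results was not tested.

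The gate itself was read first. Lgr5 (ENSMUSG00000020140) had 86.8 and 101 normalised CPM (read counts scaled to a common library size) in the CD166 libraries, against 210 and 195 CPM in the LGR5 libraries. It was 2.15-fold lower in CD166 (log2 -1.11 ± 0.21 SE, adjusted p = 0.00074), so Lgr5 RNA was present in both populations, and the CD166 libraries had less; in the fits of the 8 sorted and of all 14 libraries it was not called (adjusted p = 0.275 and 0.498). Alcam had 51.7 and 41.3 CPM in CD166 and 43.7 and 48.7 CPM in LGR5 (log2 0.01 ± 0.19, adjusted p = 0.996). Cd44 had 190 and 160 CPM in CD166 and 191 and 180 CPM in LGR5 (log2 -0.09 ± 0.21, adjusted p = 0.908). The ranges of Alcam, which encodes CD166, overlapped, and neither of these genes was called. Cd24a, whose protein was gated low in CD166 cells, was higher in them, at 1239 and 1066 CPM against 597 and 484 CPM in LGR5 (log2 1.09 ± 0.27, adjusted p = 0.0101). Cd24a was not called without LGR5 library 1 or LGR5 library 2 (adjusted p = 0.201 and 0.539).

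Over all genes, 1331 passed an adjusted p of 0.05, which is 9.87% of those tested. Of these 1018 were higher in CD166 (7.55% of those tested) and 313 lower (2.32%). The higher genes differed by more: 562 of them differed at least 4-fold, against 22 of the lower ones, and the median log2 difference was 2.20 among the higher and -0.92 among the lower, beside -0.0055 for all tested genes. The count and the split changed widely when 1 library was left out. Such a fit leaves 1 library in a population and measures the spread in the other population alone. Its counts therefore mix the missing library with a changed spread. A fit of all 14 libraries called 199 genes higher and 2 lower, and a fit of the 8 sorted libraries called 576 and 97.

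**Figure D1:**
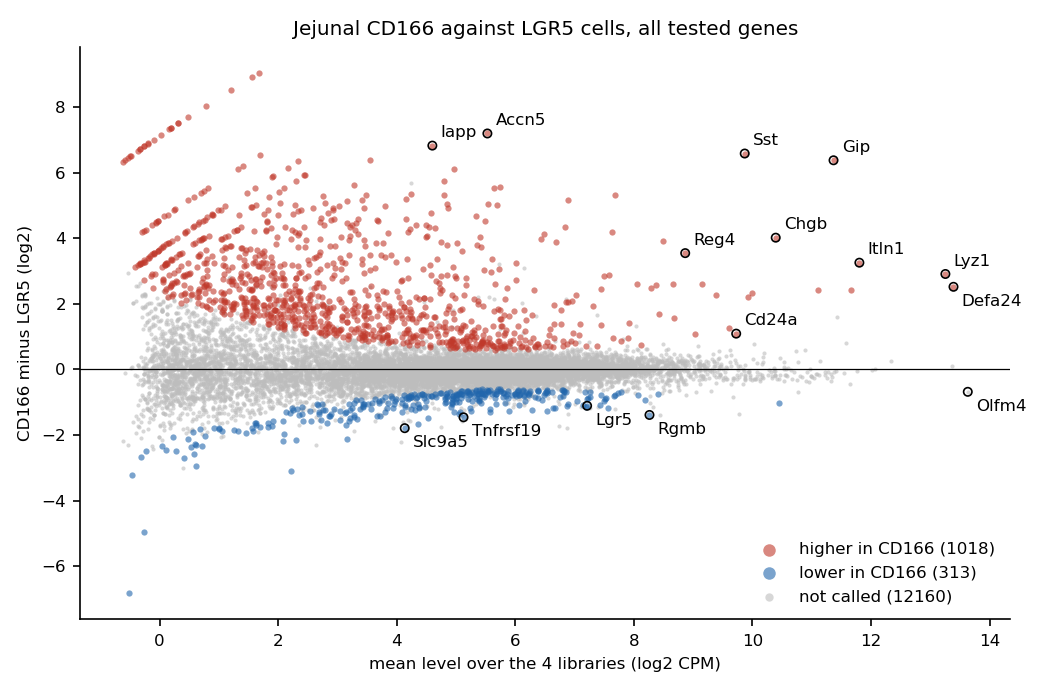
Difference between jejunal CD166 and LGR5 cells (vertical axis, log2) against the mean level over the 4 libraries (horizontal axis, log2 CPM) for 13491 tested genes, 1 point per gene, with 1018 called higher and 313 called lower in CD166. The higher genes reach further from 0 than the lower ones, and the slanting rows of points at the left are genes with 0 or a few counts in LGR5.

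Single genes were named among called genes of a mean level no lower than 3 on the log2 CPM scale, with no overlap between the populations and no predicted name, as the 14 with the largest difference each way; larger differences among scarcer genes are not in this choice. Many of the 14 higher ones are known from hormone-releasing cells. Sst (ENSMUSG00000004366), the gene of the inhibitory hormone somatostatin, had 2008 and 1695 CPM in CD166, against 18.0 and 20.6 CPM in LGR5. Gip, the gene of an incretin hormone that raises insulin release after a meal, had 3542 and 6907 CPM in CD166, against 52.8 and 72.7 CPM in LGR5. Both hormone genes were far higher in each CD166 library than in each LGR5 library, by 95.8-fold for Sst (log2 6.58 ± 0.35, adjusted p = 1.57e-11) and by 83.1-fold for Gip (log2 6.38 ± 0.44, adjusted p = 1.6e-09). Gip was the less even between the CD166 libraries, and in the fit of the 8 sorted libraries its adjusted p was 0.131. Iapp, which encodes amylin, had 38 and 56.0 CPM in CD166 and 0.25 and 0.514 CPM in LGR5 (log2 6.82 ± 0.38). Accn5, a channel gene of the acid-sensing family, had the largest difference of the 14, with 75.4 and 106 CPM in CD166 and 0.5 and 0.685 CPM in LGR5 (log2 7.19 ± 0.32). Hhex, a homeobox factor needed by somatostatin cells of the mouse pancreas, had 22.9 and 21.4 CPM in CD166 and 0.25 and 0.257 CPM in LGR5, where it rested on 2 and 3 counts (log2 6.39 ± 0.42).

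The other 9 of the 14 higher genes lay between log2 5.31 and 6.10. They were Rgs4, a brake on G protein signals (6.10 ± 0.30); Sphkap, a kinase anchoring protein (5.76 ± 0.30); Ptprn, a membrane protein of secretory granules (5.63 ± 0.43); the retinol carrier Rbp4 (5.57 ± 0.27); and the secreted peroxidase Gpx3 (5.52 ± 0.27). The cannabinoid receptor gene Cnr1 (5.36 ± 0.32), the potassium channel subunit Kcnj11 of the ATP-sensitive channel (5.33 ± 0.39), the granin Scg3 (5.32 ± 0.29) and the prohormone-trimming carboxypeptidase Cpe (5.31 ± 0.27) completed them. Cpe was the most abundant of these 9, with 423 and 374 CPM in CD166 against 11.5 and 8.65 CPM in LGR5. In none of the 14 did the libraries of the populations overlap, which the choice of these genes required. Besides Hhex, others rested on few counts in LGR5: Accn5 on 4 and 8, Iapp on 2 and 6, Ptprn on 2 and 5 and Kcnj11 on 4 and 6. The size and order of such differences are imprecise.

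The 14 lower genes chosen by the same rule differed by less, between log2 -1.79 and -1.29, and 2.44-fold to 3.46-fold in size. Slc9a5, a sodium-proton exchanger, had 4.88 and 11 CPM in CD166, against 25.7 and 28.9 CPM in LGR5 (log2 -1.79 ± 0.33, adjusted p = 0.00253). Tnfrsf19, known as Troy, a Wnt target of crypt stem cells, had 16.5 and 20.9 CPM in CD166, against 53.2 and 49.4 CPM in LGR5 (log2 -1.46 ± 0.21, adjusted p = 3.44e-05). Rgmb, a co-receptor of bone morphogenetic proteins, had 150 and 191 CPM in CD166, against 443 and 446 CPM in LGR5 (log2 -1.39 ± 0.23, adjusted p = 0.000262). In each of these 3 genes the highest CD166 library lay below the lowest LGR5 library, which the choice of these genes required. Of all tested genes, 24.6% were lower in CD166 without overlap. The others were Clca1 (-1.68 ± 0.34), Cyyr1 (-1.58 ± 0.35), the glutamate transporter Slc1a2 (-1.49 ± 0.22), Glcci1 (-1.45 ± 0.33), Aoc2 (-1.41 ± 0.30), the cytokine signal inhibitor Cish (-1.38 ± 0.28) and the meiotic cohesin Rec8 (-1.35 ± 0.22). The list ended with the telomerase gene Tert (-1.31 ± 0.31), the serotonin receptor Htr4 (-1.30 ± 0.25), the cytochrome Cyp2e1 (-1.29 ± 0.21) and the transporter Abcc6 (-1.29 ± 0.27). Gene names are those of the deposited data, in which Clca1 is a different gene from Clca3 (ENSMUSG00000028255) of the goblet cell list. Clca3 had a difference in the other direction and was not called (log2 1.65 ± 0.78, adjusted p = 0.449). Cyyr1, Glcci1, Aoc2 and Tert were not called without LGR5 library 2, and none of the 14 was called in the fit of all 14 libraries.

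**Figure D2:**
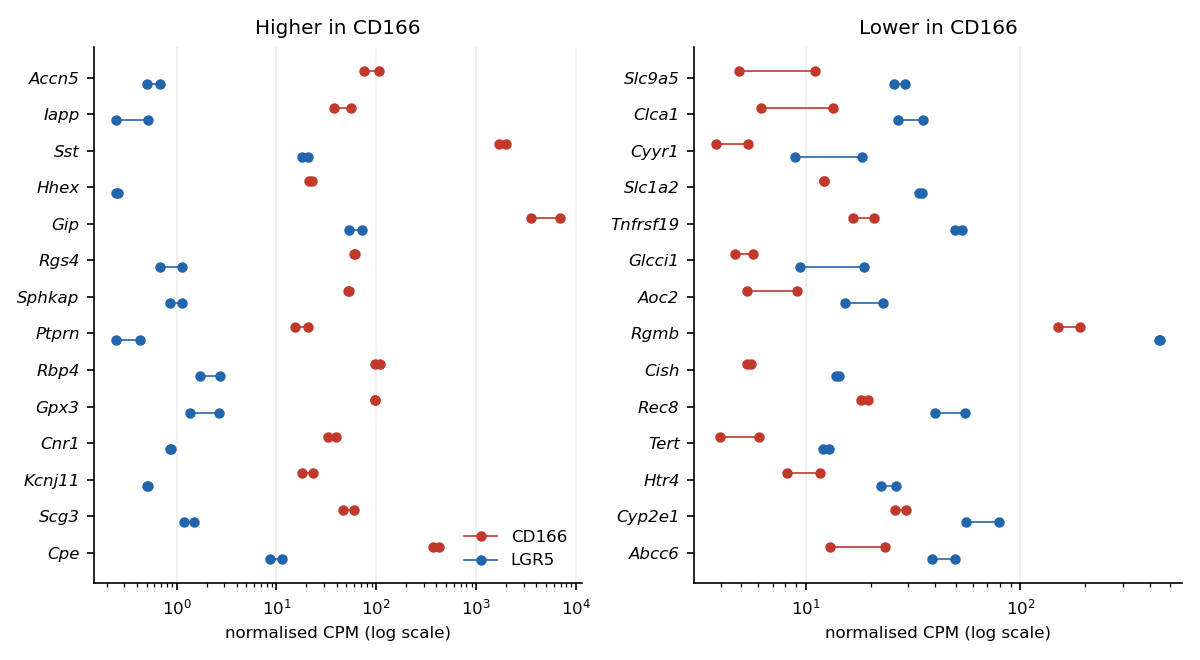
Normalised CPM (horizontal axis, log scale) of the 14 called genes with the largest difference in each direction among those with mean log2 CPM of at least 3, no overlap and no predicted name, with 1 point per library and a line joining the 2 libraries of a population, CD166 above LGR5. Sst and Gip are the most abundant of the higher genes and Rgmb of the lower ones, and the gaps between populations are wider in the left panel.

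The start regions of 5 of these genes are shown because they are among the 14 genes of each direction: 3 hormone genes that were higher in CD166 and 2 stem cell genes that were lower. Each is the RefSeq window from 250 bases before to 50 after a gene start on GRCm38.p6, 5′ to 3′ on the strand of the gene. Capitals mark a motif found on either strand: CATCTG (the E-box of neurogenic factors) in Iapp, TGACGTCA (the cAMP response element) at position -48 in Sst, CTTTGAT (a TCF and LEF site, read here as ATCAAAG) at -202 in Tnfrsf19 and TATAAA (the TATA box) at -29 in Rgmb. The windows are chr16:23890795-23891094 (minus strand) for Sst, chr11:96024295-96024594 (plus) for Gip, chr6:142298175-142298474 (plus) for Iapp, chr14:61037938-61038237 (minus) for Tnfrsf19, which has a further window, and chr17:15831197-15831496 (minus) for Rgmb, which has 3 in all. The further window of Tnfrsf19 holds none of these motifs.
Sst: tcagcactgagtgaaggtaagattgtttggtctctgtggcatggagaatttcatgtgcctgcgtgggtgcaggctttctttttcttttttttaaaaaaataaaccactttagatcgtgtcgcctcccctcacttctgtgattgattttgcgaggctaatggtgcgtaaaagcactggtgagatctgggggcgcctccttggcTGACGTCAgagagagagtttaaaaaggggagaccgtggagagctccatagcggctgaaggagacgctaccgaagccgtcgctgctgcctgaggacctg
Gip: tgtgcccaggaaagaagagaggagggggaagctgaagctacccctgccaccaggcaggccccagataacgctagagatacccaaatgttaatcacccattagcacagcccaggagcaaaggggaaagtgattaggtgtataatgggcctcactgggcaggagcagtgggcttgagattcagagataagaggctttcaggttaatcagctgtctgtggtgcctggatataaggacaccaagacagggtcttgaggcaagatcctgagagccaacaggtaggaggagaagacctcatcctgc
Iapp: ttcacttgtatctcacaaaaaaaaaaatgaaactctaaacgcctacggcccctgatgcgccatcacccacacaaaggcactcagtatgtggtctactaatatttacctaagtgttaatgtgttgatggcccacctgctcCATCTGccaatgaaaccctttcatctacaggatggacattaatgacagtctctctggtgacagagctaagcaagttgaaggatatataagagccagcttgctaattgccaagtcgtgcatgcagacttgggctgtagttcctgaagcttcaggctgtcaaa
Tnfrsf19: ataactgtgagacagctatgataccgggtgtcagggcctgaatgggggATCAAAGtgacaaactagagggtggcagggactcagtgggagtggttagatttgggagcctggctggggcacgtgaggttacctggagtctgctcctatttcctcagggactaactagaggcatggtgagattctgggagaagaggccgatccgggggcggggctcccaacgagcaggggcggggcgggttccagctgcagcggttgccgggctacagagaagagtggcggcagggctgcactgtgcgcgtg
Rgmb: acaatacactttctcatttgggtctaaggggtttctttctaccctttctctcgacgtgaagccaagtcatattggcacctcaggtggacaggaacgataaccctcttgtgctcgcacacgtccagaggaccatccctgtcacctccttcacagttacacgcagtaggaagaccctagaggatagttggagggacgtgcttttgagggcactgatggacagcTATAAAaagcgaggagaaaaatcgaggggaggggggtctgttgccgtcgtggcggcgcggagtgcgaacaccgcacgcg

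Of the 14 higher genes, 11 had such windows, 15 in all, and so did 11 of the 14 lower genes, again with 15. CATCTG stood in 2 windows of the higher and 1 of the lower genes, against 17.2% of all 32817 windows. The full cAMP response element stood in 1 and 0 windows, against 1.79% of all, and CTTTGAT in 1 and 2 windows, against 3.73% of all. TATAAA was found in 2 and 4 windows, against 13.6% of all. Of the 4, 2 are overlapping Rgmb windows that hold the same site. These are matches of letters in short windows and no more.

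The hormone list, which holds Sst, Gip and Iapp, was higher almost throughout. Of 20 hormone genes of enteroendocrine cells 13 passed the count filter, and 10 of them were higher in CD166 and 0 lower, with a median log2 difference of 3.69. Beside the counts of this and the following lists stand the shares of all tested genes, 7.55% higher and 2.32% lower. The summed CPM of the list was 6256 and 9459 in CD166, against 145 and 188 in LGR5. Gip (3542 and 6907 CPM) and Sst (2008 and 1695 CPM) made up most of the CD166 sums. Secretin (Sct), which drives bicarbonate release, had 199 and 260 CPM in CD166 and 6.5 and 6.43 CPM in LGR5 (log2 5.15 ± 0.25). Ghrelin (Ghrl), the hunger hormone, had 148 and 176 CPM in CD166 and 13.9 and 6.94 CPM in LGR5 (log2 3.98 ± 0.30). Cholecystokinin (Cck), which empties the gallbladder, had 205 and 180 CPM in CD166 and 14.2 and 11.9 CPM in LGR5 (log2 3.88 ± 0.23). These hormones belong to several enteroendocrine subtypes, and in each of them both CD166 libraries lay far above both LGR5 libraries. Smaller differences were found for Tac1, the gene of substance P (log2 3.03 ± 0.37), the stress peptide Ucn3 (3.46 ± 0.56) and the proglucagon gene Gcg, at 52.2 and 54.3 CPM in CD166 and 13.4 and 16.4 CPM in LGR5 (1.83 ± 0.21). Pyy, a hormone of the distal gut, was scarce, with 28 and 11 counts in CD166 and 0 and 2 in LGR5, and was not called without LGR5 library 1 or by DESeq2. The endothelin gene Edn1, the most abundant of the uncalled members, went the other way, at 3.25 and 14 CPM in CD166 and 15.5 and 35.7 CPM in LGR5 (log2 -1.59 ± 1.07, adjusted p = 0.619); without LGR5 library 1 it was called lower (adjusted p = 0.00101).

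The genes of hormone granules were higher as well. Of 22 genes of serotonin synthesis, granins and prohormone processing 19 were higher in CD166 and 0 lower, with a median of 3.68, or 3.53 with Pcsk2 at its lower bound. Pcsk2, a prohormone convertase, had 14 and 33 counts in CD166 and 0 in both LGR5 libraries, at least 11.3-fold higher against a floor of 3 counts over the LGR5 group. Chgb (chromogranin B) had 2606 and 2459 CPM in CD166, against 153 and 160 CPM in LGR5, and Chga had 622 and 727 CPM in CD166, against 30.1 and 58.6 CPM in LGR5. These granins, which pack secretory granules, were 16.2-fold and 15.1-fold higher. The granins Scg5 (log2 5.19 ± 0.36) and Scg2 (5.01 ± 0.25) and the calcium sensor Scgn (5.06 ± 0.30) rose further. Of the serotonin pathway, Tph1, its rate-limiting enzyme, had 64.5 and 85.7 CPM in CD166 and 4.50 and 6.17 CPM in LGR5 (log2 3.79 ± 0.25), and the vesicle carrier Slc18a1 had 31.8 and 32.1 CPM in CD166 and 3.25 and 2.91 CPM in LGR5 (3.38 ± 0.27). Among 31 genes of exocytosis and electrical excitability 29 were higher and 0 lower (median 3.12): besides Ptprn and Kcnj11, the sulfonylurea receptor Abcc8 (4.69 ± 0.24), which pairs with Kcnj11, the G protein Gnao1 (4.39 ± 0.29), the calcium channel subunit Cacna2d1 (4.35 ± 0.28) and the fusion protein Snap25 (3.39 ± 0.43). Trpc5 had 35 and 38 counts in CD166 and 1 and 0 in LGR5. The members that were not called were the widely expressed Vamp2 (-0.19 ± 0.20, adjusted p = 0.713) and Rab3a (0.30 ± 0.33, adjusted p = 0.738).

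Of 30 transcription factors of enteroendocrine cells 18 were higher in CD166 and 0 lower, with a median of 2.34. Isl1, a LIM homeobox factor of hormone cells, had 83.8 and 85.9 CPM in CD166 and 5.00 and 2.57 CPM in LGR5 (log2 4.53 ± 0.27). Pax6 (4.28 ± 0.30), the serotonin cell factor Fev (3.43 ± 0.35) and Rfx6 (3.35 ± 0.24) were higher too, as was Neurod1, a late factor of the lineage, at 47.8 and 44.4 CPM in CD166 and 7.99 and 5.05 CPM in LGR5 (2.84 ± 0.25). Neurog3, the transient factor that starts the lineage, had 20.9 and 17.2 CPM in CD166 and 29.2 and 16.1 CPM in LGR5, and the populations overlapped (log2 -0.24 ± 0.27, adjusted p = 0.744). Sox4 (-0.44 ± 0.21, adjusted p = 0.242) and Mlxipl (-1.03 ± 0.37, adjusted p = 0.159) were not called either. In these 4 enteroendocrine lists the fit of all 14 libraries still called 6 hormones, 13 serotonin and granin genes, 21 exocytosis genes and 10 transcription factors higher.

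Paneth cell genes were also higher in CD166, and of the cell type lists they had the highest summed CPM in both CD166 libraries. Of 22 tested members 18 were higher and 0 lower, with a median of 2.42, and their summed CPM was 38572 and 62970 in CD166, against 6487 and 9233 in LGR5. Lyz1, the lysozyme of Paneth granules, had 13148 and 21383 CPM in CD166, against 1972 and 2621 CPM in LGR5 (log2 2.91 ± 0.41, adjusted p = 3e-05). The lectin Itln1 had 6394 and 6556 CPM in CD166, against 692 and 665 CPM in LGR5 (3.25 ± 0.35). Mmp7, the protease that activates defensins, had 578 and 803 CPM in CD166, against 107 and 120 CPM in LGR5 (2.60 ± 0.26). All of these genes were high in both CD166 libraries, and Lyz1 was highest in CD166 library 2. Habp2 (2.84 ± 0.36), the ribonuclease Ang4 (2.60 ± 0.29), the phospholipase Pla2g2a (2.58 ± 0.24) and the Wnt ligand Wnt3, a niche signal for stem cells (33.4 and 18.9 CPM in CD166, 5.5 and 4.45 CPM in LGR5, 2.40 ± 0.30), were higher as well. Defa24, a defensin whose reads may be shared with near-identical copies, had 12331 and 24294 CPM in CD166 and 2362 and 4026 CPM in LGR5 (2.52 ± 0.44) and was not called without LGR5 library 1. Lyz2 differed mainly by 1 LGR5 library, at 51.7 and 44.1 CPM in CD166 and 2.00 and 24.2 CPM in LGR5 (1.82 ± 1.34, adjusted p = 0.662). The fit of all 14 libraries called 3 of the 22 higher, and the fit of the 8 sorted libraries called 17.

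Goblet cell and tuft cell genes were higher too. Of 22 goblet genes 16 were higher and 0 lower (median 1.55), and the summed CPM was 10216 and 6349 in CD166, against 3751 and 2164 in LGR5. Muc2, the main gel-forming mucin, had 774 and 451 CPM in CD166, against 242 and 167 CPM in LGR5 (log2 1.58 ± 0.29, adjusted p = 0.00118). Retnlb (2.86 ± 0.52), Ramp1 (2.68 ± 0.26), the chemokines Ccl6 (2.62 ± 0.24) and Ccl9 (2.06 ± 0.22), Capn9 (1.81 ± 0.40) and Tpsg1 (1.75 ± 0.30) had the largest differences among the called members. The goblet factor Spdef (1.09 ± 0.27) and the mucin chaperone Agr2 (1.07 ± 0.26) were called too. Fcgbp, a mucus protein, varied within each population, at 5950 and 2355 CPM in CD166 and 1841 and 895 CPM in LGR5 (1.60 ± 0.51, adjusted p = 0.102), and Zg16 had 230 and 356 CPM in CD166 and 225 and 87.0 CPM in LGR5 (0.91 ± 0.57, adjusted p = 0.531). Muc2, Capn9, Spdef and Agr2 were not called without LGR5 library 2, which left 9 of the 22 called. Spdef was also not called without CD166 library 1, nor Agr2 without LGR5 library 1. The fit of the 8 sorted libraries called 3 and the fit of all 14 called 1.

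Of 32 tuft genes 23 were higher and 0 lower (median 1.39), with a summed CPM of 1313 and 1374 in CD166, against 527 and 496 in LGR5. The tuft kinase Dclk1 had 174 and 144 CPM in CD166, against 45.6 and 36.4 CPM in LGR5 (log2 1.96 ± 0.21, adjusted p = 8.8e-07). Fyb (1.91 ± 0.24), Ccdc129 (1.86 ± 0.37), the cytoskeletal protein Avil (1.82 ± 0.21), Alox5ap of leukotriene synthesis (1.80 ± 0.22) and Spib (1.79 ± 0.20) followed. The taste channel Trpm5 had 132 and 157 CPM in CD166 and 54.0 and 57.9 CPM in LGR5 (1.37 ± 0.20), and Pou2f3, the factor tuft cells require, had 43.1 and 42.6 CPM in CD166 and 14.1 and 11.8 CPM in LGR5 (1.73 ± 0.22). In Dclk1, Trpm5 and Pou2f3 the populations did not overlap, which was also so for 48.6% of all tested genes in either direction. The fit of the 8 sorted libraries called 1 of the 32, and the fit of all 14 called 0.

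Among genes of absorptive cells the differences were smaller for most members. Of 40 enterocyte genes 9 were higher and 0 lower, and the median of the list was 0.35. Slc6a19, a neutral amino acid transporter, had 71.5 and 97.9 CPM in CD166, against 12.2 and 9.42 CPM in LGR5 (log2 2.98 ± 0.23). Ceacam20 (2.13 ± 0.40), the fructose transporter Slc2a5 (1.42 ± 0.25), the sucrase-isomaltase gene Sis (1.41 ± 0.23), the peptide transporter Slc15a1 (1.23 ± 0.33) and Espn (1.19 ± 0.23) were higher, and the abundant Vil1, a protein of microvilli, was not called (0.29 ± 0.25, adjusted p = 0.616). The summed CPM of this list was 6620 and 7303 in CD166 and 5876 and 5043 in LGR5, and 4 members were called without LGR5 library 2, Sis and Slc15a1 no longer among them. In dietary lipid absorption 2 of 24 genes were higher, a share near the 7.55% of all tested genes. They were the lipoprotein receptor Scarb1 (56.2 and 43.5 CPM in CD166, 5.75 and 7.62 CPM in LGR5, 2.88 ± 0.24) and the cholesterol exporter Abca1 (1.03 ± 0.27). Of the same list 1 gene was lower, Abcg8 (-0.65 ± 0.19).

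Stem cell genes were lower in CD166, by modest amounts. All 30 members of the crypt base columnar list were tested, every log2 difference was below 0 (-1.46 to -0.33, median -0.71), and 17 were called lower and 0 higher. Over all tested genes, 49.3% had a difference above 0, and 2.32% were called lower. Besides Lgr5, Tnfrsf19 and Rgmb, Gkn3 had 51.4 and 70.6 CPM in CD166, against 150 and 127 CPM in LGR5 (log2 -1.18 ± 0.21). The binding protein Igfbp4 (-1.07 ± 0.22) and the Wnt target Sp5 (-1.03 ± 0.21) followed, and Ascl2, the master factor of these stem cells, had 48.5 and 46.9 CPM in CD166 and 86.2 and 72.6 CPM in LGR5 (-0.73 ± 0.19, adjusted p = 0.0157). The most abundant members were not called: Olfm4 had 9079 and 10442 CPM in CD166 and 17355 and 13959 CPM in LGR5 (-0.68 ± 0.38, adjusted p = 0.348), Slc12a2 differed by -0.68 ± 0.29 (adjusted p = 0.175), Clca4 by -0.45 ± 0.32 (0.519) and Smoc2 by -0.48 ± 0.24 (0.276). The summed CPM of the list was 16564 and 16680 in CD166, against 28073 and 24420 in LGR5. Olfm4 alone made up 9079 and 10442 CPM of the CD166 sums and 17355 and 13959 CPM of the LGR5 sums. RNA of the listed genes was thus present in both populations, with the sums led by Olfm4. Without LGR5 library 1 the list had 8 calls and without LGR5 library 2 it had 7; the fit of the 8 sorted libraries and limma on the deposited log2 values called 3 each, and the fit of all 14 called 0.

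**Figure D3:**
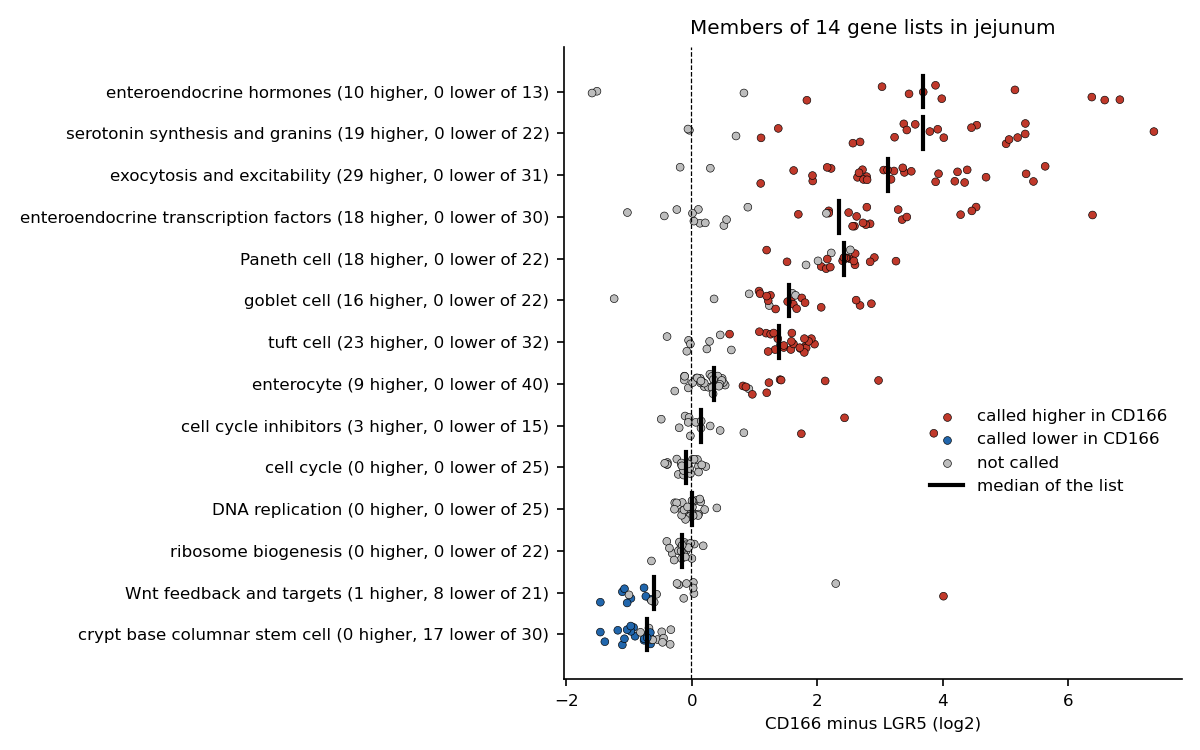
Log2 difference between CD166 and LGR5 (horizontal axis) of each tested member of 14 gene lists (1 point per gene, coloured by its call), with the median of each list as a bar and the median of all tested genes as a dashed line. The 4 enteroendocrine lists and the Paneth list have medians above 2, the cell cycle and replication lists lie around 0, and all 30 stem cell genes lie left of the line.

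The Wnt list shares some of its genes with the stem cell list. Of 21 targets and feedback genes 8 were lower and 1 higher (median -0.60), against 2.32% lower and 7.55% higher of all tested genes. Myc, a transcription factor gene of growth that Wnt switches on, had 105 and 117 CPM in CD166, against 211 and 256 CPM in LGR5 (log2 -1.07 ± 0.21, adjusted p = 0.00136). The receptor ligases Rnf43 (-0.97 ± 0.21) and Znrf3 (-0.66 ± 0.20) and the feedback gene Axin2 (253 and 251 CPM in CD166, 375 and 480 CPM in LGR5, -0.76 ± 0.23), all of which damp Wnt signals, were lower too. The secreted inhibitor Wif1, the gene that rose, had 37 and 34 counts in CD166 and 1 and 2 in LGR5. Myc, Rnf43, Znrf3, Axin2, Ascl2 and Sp5 were not called without LGR5 library 2, and Igfbp4, Ascl2, Axin2 and Znrf3 were not called without LGR5 library 1.

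In the Notch pathway, which holds cells back from the secretory fate, 3 of 17 genes were higher and 1 lower. The shares of all tested genes were 7.55% higher and 2.32% lower. Atoh1, the factor that starts secretory differentiation, had 40.0 and 25.8 CPM in CD166, against 15.2 and 12.3 CPM in LGR5 (log2 1.26 ± 0.25, adjusted p = 0.00138). The Notch ligand Dll4 had 58.9 and 47.0 CPM in CD166 and 27.4 and 26.3 CPM in LGR5 (0.98 ± 0.20), and Dll3 was higher at low levels (2.38 ± 0.59). Hes1, the repressor that Notch induces, was lower, at 72.0 and 83.4 CPM in CD166 and 110 and 209 CPM in LGR5 (-1.04 ± 0.27, adjusted p = 0.0285), with the LGR5 libraries far apart. The receptor Notch1 was not called (-0.53 ± 0.21, adjusted p = 0.14). Hes1 and Dll3 were not called without LGR5 library 2 or CD166 library 1, Hes1 was not called without CD166 library 2, and Dll4 was not called without LGR5 library 2.

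No gene of the division lists passed the test. Of 25 cell cycle genes, 25 DNA replication genes and 22 ribosome biogenesis genes, 0 were called by edgeR, and DESeq2 and limma-voom also called 0 in the cell cycle and replication lists; the differences ran from -0.43 to 0.22, from -0.28 to 0.40 and from -0.64 to 0.18 (medians -0.10, 0.0031 and -0.16). At an unadjusted p under 0.05 there were 0, 0 and 2 genes. Without CD166 library 1, 4 cell cycle genes and 1 replication gene were called lower, and without CD166 library 2, 1 and 2. Among 15 inhibitors of the cell cycle 3 were higher, against 7.55% of all tested genes. Cdkn1c, which encodes p57, had 75.8 and 43.2 CPM in CD166, against 3.87 and 4.28 CPM in LGR5 (log2 3.86 ± 0.29). Cdkn1a, which encodes p21, had 157 and 111 CPM in CD166, against 21.0 and 28.4 CPM in LGR5 (2.43 ± 0.23), and Cdkn2b had 16.9 and 17.3 CPM in CD166 and 5.12 and 5.05 CPM in LGR5 (1.75 ± 0.28). Genes used as marks of reserve stem cells mostly were not called: Bmi1 (-0.02 ± 0.19, adjusted p = 0.982), Hopx (0.23 ± 0.22, adjusted p = 0.673) and Lrig1 (-0.55 ± 0.22, adjusted p = 0.147). Of 9 tested, Tert was lower, and Prox1, also a factor of enteroendocrine cells, was higher, at 12.0 and 8.89 CPM in CD166 and 2.37 and 1.11 CPM in LGR5 (2.63 ± 0.39).

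Lists of signals, junctions, secretion and metabolism had few called members, and in most the share of higher genes was near the 7.55% of all tested genes. Reg4, a lectin of deep crypt secretory and enteroendocrine cells, had 755 and 962 CPM in CD166, against 65.6 and 81.3 CPM in LGR5 (log2 3.55 ± 0.28), the only rise among 17 genes of epithelial defence, where the oxidase subunit Noxo1 was lower (-0.98 ± 0.30). The BMP decoy receptor Bambi had 36.7 and 51.5 CPM in CD166, against 6.75 and 9.0 CPM in LGR5 (2.47 ± 0.25), and with Bmp1 (1.21 ± 0.23) it made 2 of 22 genes of the TGF-beta and BMP pathway. Of 17 genes of the EGF receptor pathway 3 were higher: Egf itself (2.11 ± 0.42), the phosphatase Dusp6 (0.96 ± 0.26) and Etv5 (0.81 ± 0.25). In electrolyte transport 4 of 25 were higher, the peptides Guca2a (1.95 ± 0.23) and Guca2b (1.52 ± 0.31), which act on the guanylate cyclase of the gut lining, and Car2 (1.59 ± 0.35) and Car8 (1.16 ± 0.19). Of 17 tight junction genes Cldn4 (2.27 ± 0.23) and Cldn1, at 39 and 34 counts in CD166 and 2 and 0 in LGR5, were higher. The cholesterol enzyme Sc4mol (0.73 ± 0.19), 1 of 2 called among 25, Itga9 (2.95 ± 0.42) and the laminin Lama5 (1.00 ± 0.25), 2 of 23 genes of matrix adhesion, Efnb2 (0.81 ± 0.23), 1 of 11 Eph receptors and ephrins, and the foregut factor Pdx1 (1.00 ± 0.29), 1 of 26 positional factors, were higher. In fatty acid oxidation 2 of 24 were higher, among them Pdk4 (1.44 ± 0.22), and 1 was lower. Without LGR5 library 2, Noxo1, Dusp6, Etv5, Sc4mol, Efnb2, Abcg8 and Abca1 were not called, and without LGR5 library 1 the same held for Dusp6, Etv5, Car2, Sc4mol, Efnb2, Pdx1, Lama5, Abcg8 and Abca1. Guca2b was not called without CD166 library 1 or without CD166 library 2 and Noxo1 was not called without CD166 library 1.

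Genes that respond to tissue handling and markers of other cells were counted in the same way. Over all tested genes, 7.55% were higher in CD166 and 2.32% lower. The shares called higher among immediate early and heat shock genes were near that share. Of 31 immediate early genes 3 were higher (Dusp2, 3.23 ± 0.54; Klf2, 1.21 ± 0.34; Nr4a2, 0.80 ± 0.23) and 2 lower (Myc and Hes1), and their summed CPM was 1978 and 4767 in CD166 and 2739 and 5278 in LGR5, lower in library 1 of each population. In heat shock and the unfolded protein response 2 of 28 were higher, Atf6 (0.85 ± 0.19) among them, and Hsph1 was lower (-0.87 ± 0.21). No cytosolic ribosomal protein gene was called, while 74 of 75 lay below 0 (median -0.23), and their summed CPM was 69724 and 100734 in CD166 and 102078 and 94481 in LGR5, lowest in CD166 library 1. Of 22 lymphocyte markers 9 passed the count filter, with summed CPM of 14.3 and 13.0 in CD166 and 51.2 and 23.3 in LGR5, and Cd8a (-1.91 ± 0.60) and Ccl5 (-1.84 ± 0.55) were lower. Summed myeloid markers stood at 103 and 88.7 CPM in CD166 and 42.0 and 70.5 CPM in LGR5. Of these sums Lyz2, which is also on the Paneth list, made up 51.7 and 44.1 CPM in CD166 and 2.00 and 24.2 CPM in LGR5. Of 7 myeloid genes tested 1, the macrophage gene C1qa, was called higher, at 19 and 14 counts in CD166 and 1 and 2 counts in LGR5 (adjusted p = 0.0248). The plasma cell gene Igj had 43.6 CPM in CD166 library 1 and 0.230 CPM in CD166 library 2, against 0 and 0.428 CPM in LGR5. Of 10 stromal markers Vim (49.2 and 38.9 CPM in CD166, 8.37 and 6.08 CPM in LGR5, 2.62 ± 0.25) and the scarce Postn were higher, and the summed CPM of that list was 98.8 and 73.8 in CD166 and 14.7 and 38.2 in LGR5. Endothelial markers summed to 31.2 and 29.1 CPM in CD166 and 25.2 and 32.0 CPM in LGR5, with 0 of 9 called. No marker of these lymphocyte, myeloid, stromal and endothelial lists was at 0 in all 4 libraries. Of 12 general epithelial genes 1 was called, Cldn4. Atf6 and Hsph1 were not called without LGR5 library 1 or without LGR5 library 2, Klf2 and Nr4a2 without LGR5 library 1, Klf2 without CD166 library 2, Cd8a and Ccl5 without library 1 of either population and Postn without any one of the 4. C1qa was not called without CD166 library 1, LGR5 library 1 or LGR5 library 2. The part of handling and of these other cells in the results was not tested.

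The same populations gave few calls in the ileum, which does not mean that all differences were small there. Sst differed by log2 5.07 ± 0.63 SE in the ileum (edgeR adjusted p = 0.178) and Gip by 5.07 ± 1.83 (adjusted p = 0.397). Neither was called, and their jejunal standard errors were 0.35 and 0.44. The 2 ileal CD166 libraries against the 2 ileal LGR5 libraries gave 17 calls (0.130% of 13051 genes tested), all higher in CD166, and 14 of them were also called, in the same direction, in the jejunum, which is 82.4% of the ileal and 1.05% of the jejunal calls. The summed CPM of the hormone list, scaled over all 14 libraries, was 6091 and 9182 in jejunal CD166 and 139 and 180 in jejunal LGR5; in the ileum it was 1374 and 3453 in CD166 and 163 and 404 in LGR5. Paneth sums were 37554 and 61127 in jejunal CD166 and 6193 and 8829 in jejunal LGR5, and 49725 and 49476 in ileal CD166 and 11281 and 12456 in ileal LGR5. The populations were thus separate in both regions for these lists. For goblet genes they were separate in the jejunum (9946 and 6163 in CD166, 3581 and 2069 in LGR5) and overlapped in the ileum (6687 and 12797 in CD166, 8963 and 26116 in LGR5), where LGR5 library 2 was the highest of all. Stem cell sums also overlapped in the ileum, at 19026 and 17196 in CD166 and 27603 and 13821 in LGR5. Jejunal crypt libraries had hormone sums of 289 to 536 CPM.

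**Figure D4:**
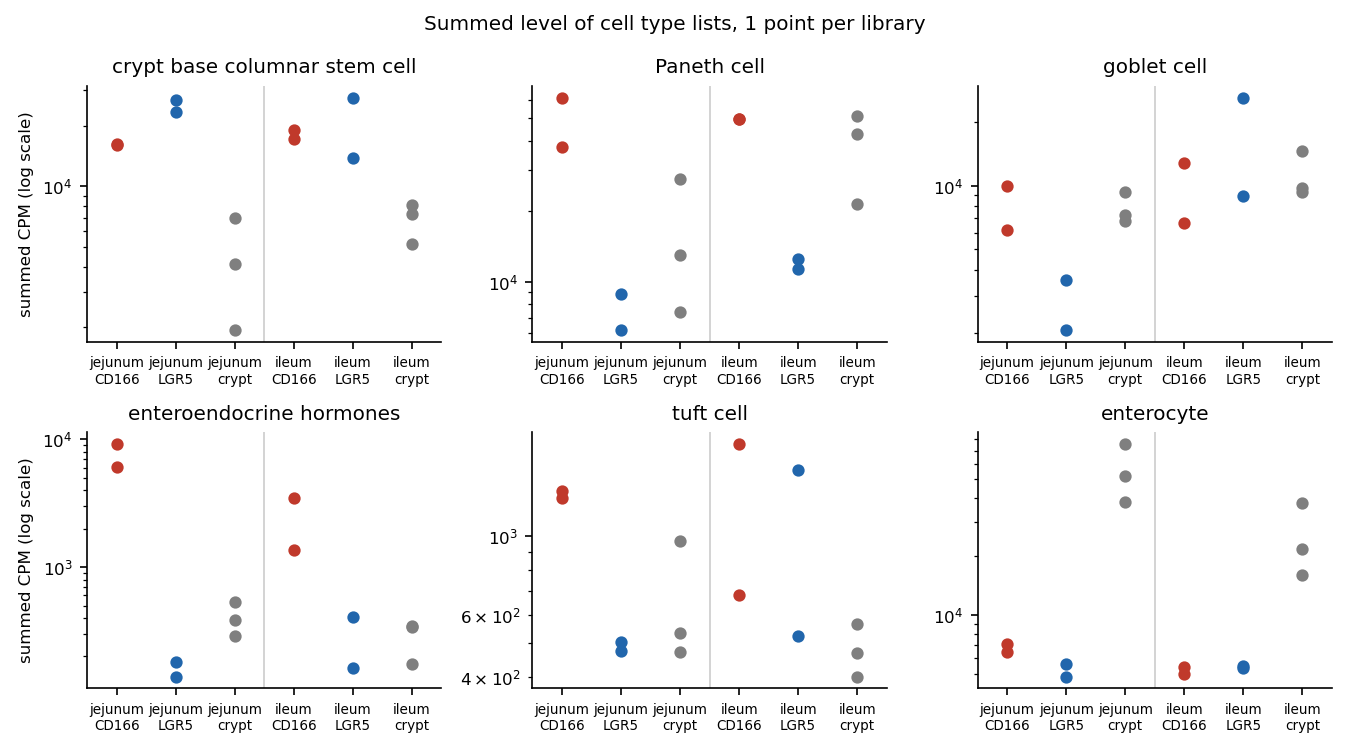
Summed CPM of 6 cell type lists (vertical axes, log scale, scaled over all 14 libraries), with 1 point per library in the CD166, LGR5 and crypt groups of jejunum and ileum. The hormone and Paneth sums are higher in CD166 than in LGR5 in both regions, while the goblet, tuft and stem cell sums of CD166 and LGR5 overlap in the ileum and not in the jejunum.

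Whether the difference between CD166 and LGR5 was itself unlike in the regions was tested as an interaction over the 8 sorted libraries. It called 22 of 13814 genes (0.159%), all with a larger CD166 minus LGR5 difference in the jejunum. The largest differences were in the scarce genes Rgs17 (5.26 ± 0.83) and Sv2c (5.13 ± 0.86). The genes described next had a mean log2 CPM of at least 3. The vesicle carrier Slc18a1 differed by log2 3.38 more in the jejunum (± 0.46 SE, adjusted p = 0.0246): it had 31.7 and 32.0 CPM in jejunal CD166 and 3.24 and 2.90 CPM in jejunal LGR5, but 15 and 16.8 CPM in ileal CD166 and 10.1 and 22.1 CPM in ileal LGR5. Tph1 had 64.2 and 85.3 CPM in jejunal CD166 and 4.48 and 6.14 CPM in jejunal LGR5, and only 5.00 and 6.47 CPM in ileal CD166 and 2.23 and 4.77 CPM in ileal LGR5 (3.05 ± 0.46). Of these 4 groups, Tph1 was high in jejunal CD166 and low in the rest, whereas Slc18a1 was low in jejunal LGR5. The convertase Pcsk1 (2.44 ± 0.36) and the receptor Ret (2.82 ± 0.48) were among the 22 as well. The adenylate cyclase Adcy8 (3.56 ± 0.47) had 5.07 and 5.49 CPM in jejunal CD166 and 0.249 and 0.853 CPM in jejunal LGR5, against 38.3 and 38.4 CPM in ileal CD166 and 61.9 and 42.0 CPM in ileal LGR5. The factor Klf12 (4.17 ± 0.54) was likewise lowest in jejunal LGR5, at 0.374 and 0.682 CPM against 6.34 and 4.50 CPM in jejunal CD166. In the ileum Klf12 had 11.6 and 8.03 CPM in CD166 and 19.5 and 16.9 CPM in LGR5. Muc2 (2.65 ± 0.41) was higher in jejunal CD166 than in jejunal LGR5, and had 789 and 766 CPM in ileal CD166 and 1400 and 1858 CPM in ileal LGR5. Wnt3 (2.47 ± 0.37) had 39.1 and 35.7 CPM in ileal CD166 and 35.5 and 42.9 CPM in ileal LGR5, where the groups overlapped. None of the 28 genes named first, 14 in each direction, was called in this test; in the ileum the 14 higher ones differed by log2 2.49 to 5.99, and only Rgs4 passed there (3.60 ± 0.46, adjusted p = 0.0331). The number of calls changed widely when 1 of the 8 libraries was left out. The spread then came only from the groups that kept 2 libraries.

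**Figure D5:**
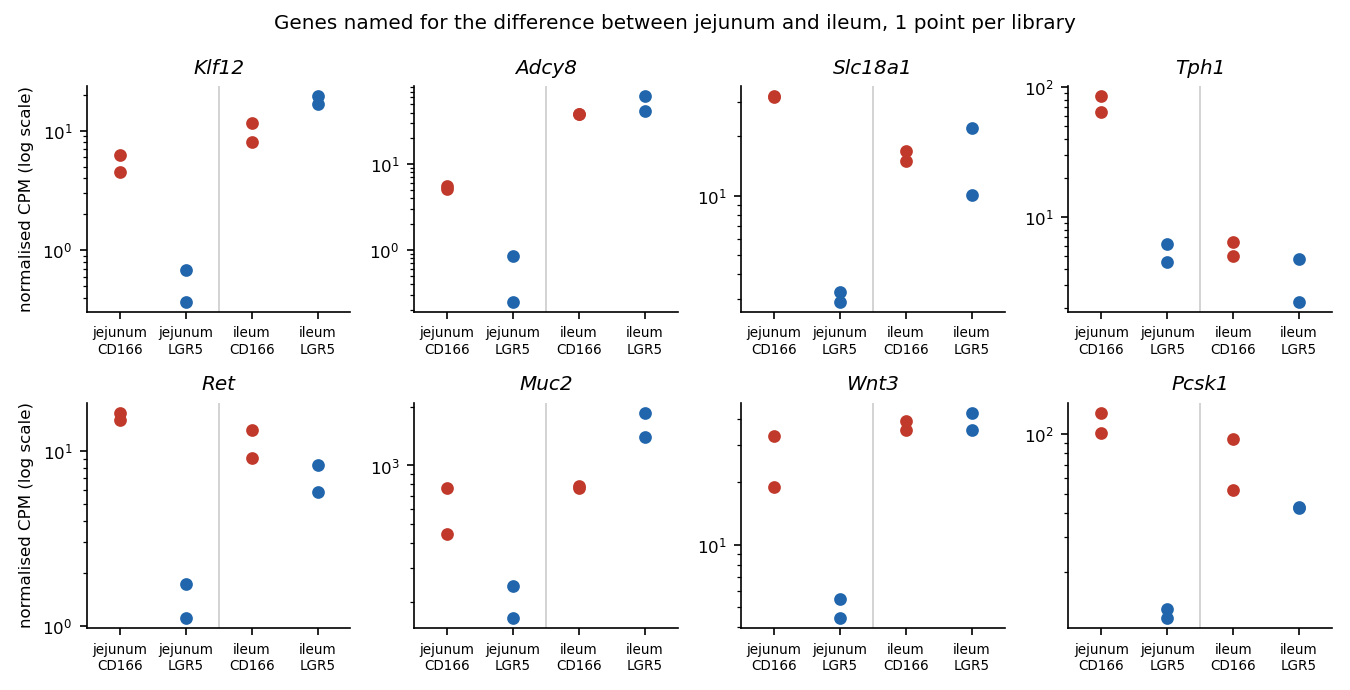
Normalised CPM (vertical axes, log scale) of 8 genes named for the difference between the regions, with 1 point per library in CD166 and LGR5 of jejunum and ileum. In all 8 the CD166 points lie above the LGR5 points in the jejunum, while in the ileum they lie below or overlap for Klf12, Adcy8, Slc18a1, Muc2 and Wnt3.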

How the data were processed

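RNA of sorted cells was sequenced with TruSeq libraries, per the labels. The authors deposited an expected count and a log2 value per gene and library; the submitters' processing notes name DESeq and mm9, without a step or version, while the sources used here name no aligner or counter. Expected counts were rounded. Genes that passed filterByExpr (minimum count 10, minimum total 15) were scaled by TMM and tested on the 4 jejunal libraries with the quasi-likelihood test of edgeR 4.0.16 (R 4.3.3), with Benjamini-Hochberg adjustment over all tested genes, two-sided, and called at an adjusted p of 0.05. Normalised CPM use the TMM factors, and ± is the standard error, taken as the log2 difference divided by the square root of the F statistic. The interaction used the 8 sorted libraries. Between libraries of a population 59.0% (CD166) and 36.6% (LGR5) of genes differed beyond counting noise, so precision depends on the spread between libraries as well as on the total counts. In a test on simulated counts of 13491 genes for the jejunal comparison 52.5% of 2-fold and 93% of 4-fold changes were recovered, with 9 unchanged genes called. The changes were placed in a small sample of these genes, with the scarcest left out.

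Genes were named by rule. From the jejunal comparison these were the 14 called genes with the largest difference each way, with mean log2 CPM of at least 3, no overlap and no predicted name. Each list gave up to 6 called genes each way and 4 abundant uncalled genes. The interaction gave the 5 largest called differences among genes with mean log2 CPM of at least 3. Further list members, among them Chga, Muc2, Neurog3, Defa24, Ascl2, Bmi1, Gcg and Xist, were chosen after their values were seen. The comparison and the gene lists were chosen with earlier results of these data known. Reads of defensin, Clca, Reg and Cyp genes may be shared between near-identical copies. Alternatives were DESeq2 1.42.0 with its size factors, limma 3.58.1 with voom or on the deposited log2 values, other filters, wider fits, leaving out each library and a replicate block. Leaving out a library also changes the spread that the test uses, because a group with 1 library adds nothing to it.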

Additional observations from a re-analysis of the deposited data

Results flagged for a closer look

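The difference between CD166 and LGR5 cells was not the same in jejunum and ileum for 22 genes by the interaction test over the 8 sorted libraries, and every one of them had the larger CD166 minus LGR5 difference in the jejunum. The log2 difference, jejunum minus ileum, was 4.17 for Klf12, 3.56 for Adcy8, 3.38 for Slc18a1, 3.05 for Tph1, 2.82 for Ret, 2.65 for Muc2, 2.47 for Wnt3 and 2.44 for Pcsk1. Their adjusted p by edgeR was 0.0246, and 0.0384 for Ret. By limma-voom, and in the fit of all 14 libraries, the interaction called 0 genes.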

How the results depend on the processing

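None of the 139 genes named as called changed direction under any of the 13 alternatives that tested it, and 41 of them were called under every one. A filter of 1 CPM in 2 libraries left out 3 of them, Pyy, Pcsk2 and Postn, and Pyy was not tested without CD166 library 1 nor Pcsk2 without CD166 library 2. The losses were 97 in the fit of all 14 libraries, 50 in the fit of the 8 sorted libraries, 44 by limma on the deposited log2 values, 14 by DESeq2, 9 by limma-voom, 1 under a filter of 1 CPM in 2 libraries, and 9, 4, 25 and 31 without CD166 library 1, CD166 library 2, LGR5 library 1 and LGR5 library 2. In the wider fits Lgr5 itself had an adjusted p of 0.498 (14 libraries) and 0.275 (8 libraries).

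The jejunal count of 1331 calls was 201 with all 14 libraries and 673 with the 8 sorted ones, and ran from 825 to 3047 when 1 library was left out. The higher calls were 199 and 576 in the wider fits and 744 to 1584 with 1 library left out. The lower calls were 532 with no low count filter, 2 with all 14 libraries, 97 with the 8 sorted ones, 64 on the deposited log2 values and 81 to 1463 with 1 library left out. DESeq2 called 999 genes, limma-voom 1207 and DESeq2 size factors 1336. Of the calls, 92.9% were higher on the deposited log2 values and 99.0% with all 14 libraries.

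The replicate block, in which libraries of the same number form a pair, called 1819 genes, of which 633 were lower and 65.2% higher. The labels give the libraries only a number: over 13491 genes the difference between CD166 libraries 1 and 2 correlated with that between LGR5 libraries 1 and 2 at r = 0.122. With the block the interaction called 62 genes.

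The 22 genes of the interaction became 697 with no filter, 245 by DESeq2, 0 by limma-voom (1774 at an unadjusted p under 0.05) and 0 with all 14 libraries (943 unadjusted), and 0 to 387 with 1 of the 8 libraries left out. Values of uncalled genes that changed sign were those of Alcam (-0.0012 by limma-voom, -0.15 without CD166 library 1, -0.068 without LGR5 library 1; range with 1 library left out -0.15 to 0.16), Cd44 (0.034 without CD166 library 2; range -0.20 to 0.034), Neurog3 (0.24 without LGR5 library 1; range -0.62 to 0.24) and Bmi1 (0.0040 with all 14 libraries, 0.010 on the deposited log2 values, 0.017 without CD166 library 2, 0.044 without LGR5 library 1; range -0.095 to 0.044). The causes were not tested. With 2 libraries a population, 2-fold changes and genes under about 10 counts were poorly resolved.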
